A study of Rattus norvegicus with 9 samples.

Results

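Expression of 9 nuclear genes for mitochondrial proteases, chaperones and biogenesis factors was measured in INS-1E cells, a rat insulinoma line that secretes insulin. The genes were taken by name as Lonp1, Clpp, Hspd1, Hspe1, Hspa9, Trap1, Afg3l2, Tfam and Ppargc1a, which are 9 of the 20645 genes in the deposited table, and all 9 were among the 12958 genes tested, which averaged 1 FPKM or more. FPKM counts fragments scaled to gene length and library depth. Cells received fatty-acid-free BSA, 0.5 mM palmitic acid (PA), or 0.5 mM PA with 50 µM cyanidin-3-O-glucoside (C3G), an anthocyanin, for 24 h, and each group had 3 RNA-seq libraries of polyadenylated RNA. The groups are called BSA, PA and PA + C3G. No allele or transgene distinguished them, all used the same tumour-derived line, and no group received C3G without PA. The comparisons asked how PA exposure altered these transcripts and whether they differed when C3G was added.

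Mitochondria import most of their proteins unfolded from the cytosol. In the matrix, Hspa9 (mitochondrial HSP70) receives incoming chains, the Hspd1-Hspe1 chaperonin (HSP60 with its HSP10 lid) folds them, Trap1 is the mitochondrial HSP90, and Lonp1 and Clpp belong to ATP-dependent proteases that degrade damaged or surplus proteins. Afg3l2 is a subunit of the m-AAA protease of the inner membrane, Tfam packages and transcribes mitochondrial DNA, and Ppargc1a (PGC-1alpha) is a coactivator of genes for mitochondrial biogenesis. Beta cells depend on mitochondrial ATP to couple glucose to insulin release.

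The stretches upstream of 4 genes are shown because they carry the letters of elements tied to protein folding stress, cyclic AMP or mitochondrial biogenesis. Sequences were those of RefSeq on the GRCr8 build, 250 bases up to the annotated start and read 5′ to 3′ in the direction of the gene. RefSeq entries matched 8 of the 9 genes, Lonp1 being the exception. Capitals mark matches to the motifs searched, on either strand. The first lies between the divergent genes Hspd1 and Hspe1, whose RefSeq starts are 290 bases apart.
Hspe1, chr9:64084077-64084326 (+): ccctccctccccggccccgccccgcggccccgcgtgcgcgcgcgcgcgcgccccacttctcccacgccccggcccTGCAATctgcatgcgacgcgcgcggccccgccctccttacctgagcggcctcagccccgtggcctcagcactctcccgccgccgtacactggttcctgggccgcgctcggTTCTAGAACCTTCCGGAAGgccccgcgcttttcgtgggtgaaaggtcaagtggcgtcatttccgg
Hspa9, chr18:26828399-26828648 (−): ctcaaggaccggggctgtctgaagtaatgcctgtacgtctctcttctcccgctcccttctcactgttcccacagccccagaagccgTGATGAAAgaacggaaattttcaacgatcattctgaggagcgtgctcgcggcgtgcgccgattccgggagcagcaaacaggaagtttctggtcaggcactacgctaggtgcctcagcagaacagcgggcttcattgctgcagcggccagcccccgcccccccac
Tfam, chr20:17355123-17355372 (+): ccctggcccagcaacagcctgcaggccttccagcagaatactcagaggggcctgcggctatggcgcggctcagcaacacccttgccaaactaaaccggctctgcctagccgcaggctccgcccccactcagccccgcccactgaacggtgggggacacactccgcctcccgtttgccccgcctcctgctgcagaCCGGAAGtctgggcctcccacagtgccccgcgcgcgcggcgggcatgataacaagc
Ppargc1a, chr14:63634058-63634307 (+): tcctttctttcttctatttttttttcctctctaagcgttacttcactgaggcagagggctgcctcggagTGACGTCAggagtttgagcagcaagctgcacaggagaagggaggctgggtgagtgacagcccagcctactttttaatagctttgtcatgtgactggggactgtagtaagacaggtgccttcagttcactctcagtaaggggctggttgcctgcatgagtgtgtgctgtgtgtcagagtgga
The Hspe1 window held overlapping matches to the heat shock element (TTC, GAA and TTC, each set apart by 2 unspecified bases), 65 to 53 and 60 to 48 bases before the start, and these overlapped matches to the ETS site CCGGAAG at 56 to 50 and 53 to 47. It also held TGCAAT, a partial C/EBP-CHOP site, 175 to 170 bases before the start. The Hspd1 window shared 211 bases with it and held the same elements on the other strand. Hspa9 held the ATF4 response element TGATGNAA at 164 to 157, Tfam the ETS site at 56 to 50 and Ppargc1a the cyclic AMP response element (CRE) TGACGTCA at 181 to 174. Trap1 held the CRE in 2 places, Clpp and Afg3l2 held none of the motifs, and the NRF1 site (GCGCA, any base, GCGC) was in none of the 8. Of 33469 rat promoter windows of this length, 0.663% held the heat shock element, 3.4% the ATF4 element and 1.59% the CRE. The partial C/EBP-CHOP site was in 7.22%, the ETS site in 7.27% and the NRF1 site in 3.75%. The median GC content of all windows was 51.2%. It was 73.6% in the Hspe1 window, 59.6% in Hspa9, 68.4% in Tfam and 50.4% in Ppargc1a, and the shares take no account of this. These matches describe letters only.

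The libraries held between 45559993 and 66730721 estimated counts. Pearson's r of log2(FPKM + 1), computed across genes that are not independent replicates, was 0.981 to 0.985 for libraries of the same group and 0.943 to 0.977 for libraries of different groups. No library repeated another. All 14 beta cell markers in the table were above 1 FPKM on average in every group. Their summed FPKM was 50400 to 51100 in BSA, 23400 to 23900 in PA and 48000 to 53600 in PA + C3G. Ins1, which encodes insulin, made up much of this sum, with 26600, 13700 and 32000 FPKM on average. In PA 11 of the 14 markers passed as lower than in BSA and 0 as higher, against 25.2% and 25.8% of all tested genes. Relative to PA, 12 were higher in PA + C3G and 0 lower, against 11.1% and 10.2%. In PA + C3G 5 of the 14 markers were higher and 4 lower than in BSA. Of all tested genes, 19.0% were higher and 17.9% lower in this comparison. The higher markers included Nkx6-1 (1.59-fold), Pcsk2 (1.36-fold) and Chga (1.3-fold), the lower ones Slc2a2 (2.84-fold), Ins2 (1.88-fold) and Pcsk1 (1.55-fold). Of 8 listed markers of other islet cells, 4 were in the table and Gcg (glucagon) was tested, with 8.28 to 31.2 FPKM in BSA, 1.35 to 6.02 in PA and 4.17 to 22.5 in PA + C3G (−2.5 ± 0.71 for PA vs BSA, adjusted p = 0.0149). The part of these markers in the results below was not tested. Of 14 listed markers of non-islet cells, 8 were in the table and none of these reached 1 FPKM on average in any group. In bulk RNA, fewer cells of a kind and less RNA per cell cannot be told apart.

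In BSA the 9 transcripts covered a wide range of levels. Hspa9 stood at 173 ± 6.9 FPKM (SD, n = 3), Hspe1 at 158 ± 12.9 and Hspd1 at 147 ± 6.14, and the libraries of neighbours in this order overlapped. Tfam (72 ± 3.97) and Lonp1 (70.2 ± 1.39) also overlapped, followed by Clpp (60.7 ± 1.52), Afg3l2 (41.7 ± 0.352) and Trap1 (38.4 ± 1.99) without overlap. Ppargc1a was far below the others at 1.07 ± 0.317 FPKM. In PA Lonp1 moved from the fifth to the second place, although its 3 libraries overlapped those of Hspd1 and Hspe1. In PA + C3G Lonp1 took the fourth place, below Hspd1 and Hspe1 without overlap and above Tfam without overlap.

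**Figure D1:**
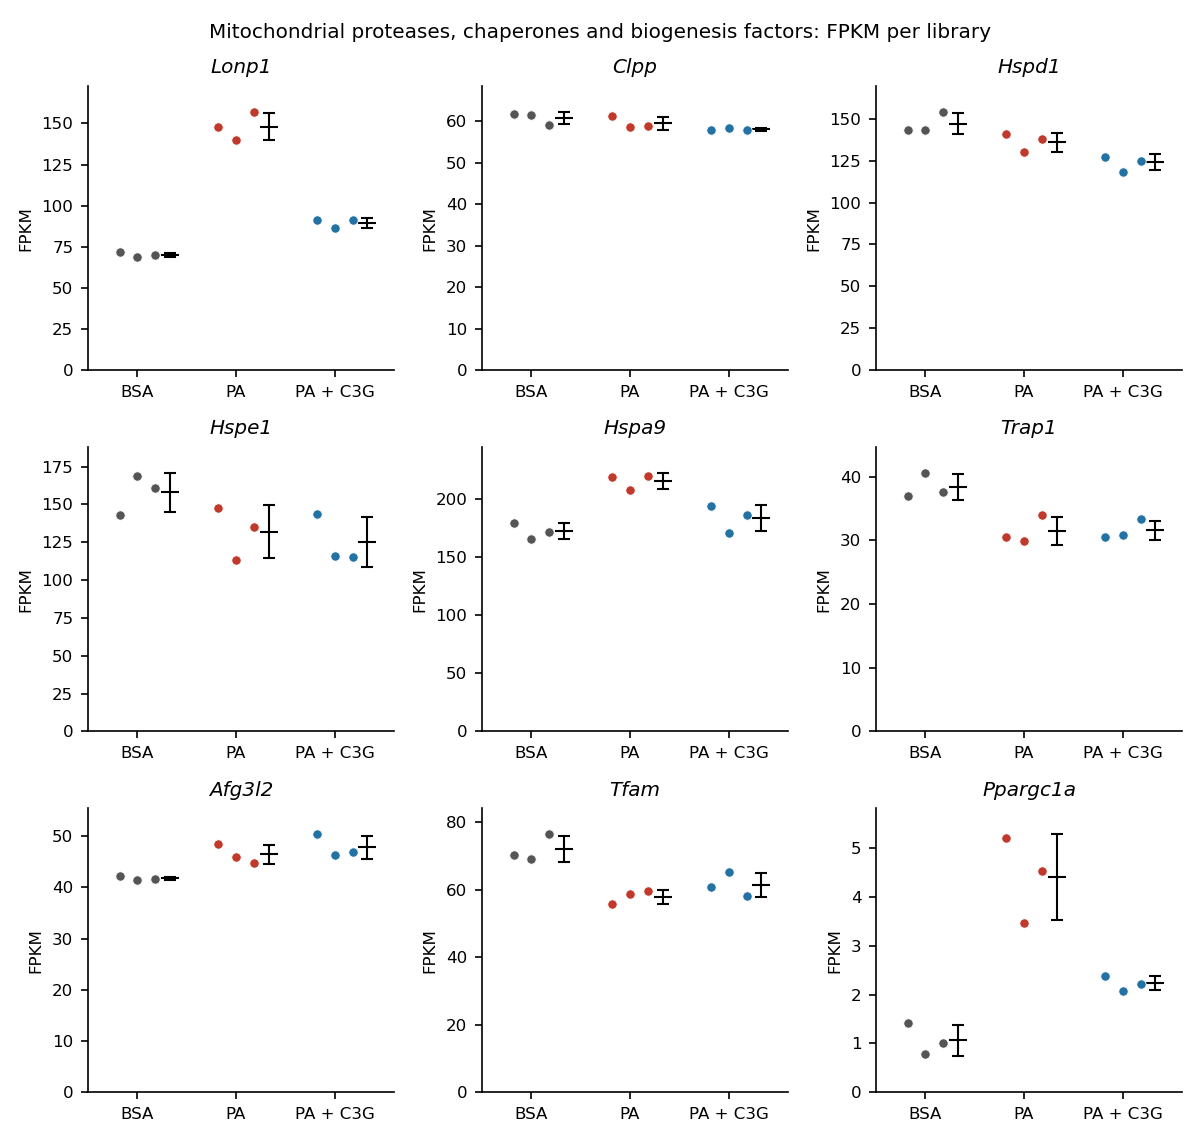
FPKM of the 9 genes in each library (dots) of BSA, PA and PA + C3G, with the mean and SD of 3 libraries beside them and each axis starting at 0. Lonp1 and Ppargc1a were highest in PA and intermediate in PA + C3G, whereas Clpp lay between 57.8 and 61.7 FPKM in all 9 libraries.

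Compared to the BSA group, PA raised Lonp1 and Ppargc1a more than 2-fold, raised Hspa9 and Afg3l2 slightly, and lowered Tfam and Trap1 slightly. Clpp, Hspd1 and Hspe1 did not pass the test. Thus 6 of the 9 genes passed at an adjusted p under 0.05, 4 higher and 2 lower, where 51.0% of all tested genes passed, 25.8% higher and 25.2% lower. With fold change above 2 and unadjusted p under 0.05, the study's criterion for differentially expressed genes, Lonp1 and Ppargc1a passed, both higher, against 7.56% of all genes (3.30% higher, 4.26% lower). FPKM of the 2 groups did not overlap for 7 of the 9 genes and for 59.9% of all genes. The median log2 fold change was −0.0046 over the 9 genes and 0.003 over all genes.

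Compared to the PA group, PA + C3G had lower Lonp1, Ppargc1a and Hspa9 and no gene of the 9 that passed as higher. These 3 of 9 compare with 21.2% of all tested genes, 11.1% higher and 10.2% lower. None met the criterion of a 2-fold change, which 1.13% of all genes did (0.702% higher, 0.432% lower). FPKM did not overlap for 5 of the 9 genes and for 39.5% of all genes. The median over the 9 genes was −0.038, and over all genes −0.00073. All genes split into 1436 higher and 1316 lower, but into 775 and 2525 when libraries were scaled to the same FPKM sum (TPM scaling) and 1065 and 1636 with limma on log2(FPKM + 1). The calls of Hspa9 and Ppargc1a rested partly on single libraries, whereas Lonp1 passed whichever library was left out. Without PA replicate 1 only Lonp1 passed.

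Compared to the BSA group, PA + C3G still had higher Lonp1, Ppargc1a, Hspa9 and Afg3l2, and lower Hspd1, Trap1 and Tfam. These 7 of 9 compare with 36.9% of all tested genes, 19.0% higher and 17.9% lower, and Ppargc1a alone met the 2-fold criterion, as did 4.63% of all genes (1.86% higher, 2.77% lower). Its log2 value of 1.11 fell below that criterion without BSA replicate 2 (0.928). With limma on log2(FPKM + 1), which adds 1 to its BSA mean of 1.07 FPKM, the value was 0.649. FPKM did not overlap for 7 of the 9 genes and for 50.3% of all genes. The median was −0.0038 over the 9 genes and 0.0067 over all genes. All genes split into 2462 higher and 2321 lower, but into 1891 and 3038 under TPM scaling and 1850 and 3091 with limma. Each pair of comparisons shares a group of libraries, so their values are given side by side and not as independent results.

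**Figure D2:**
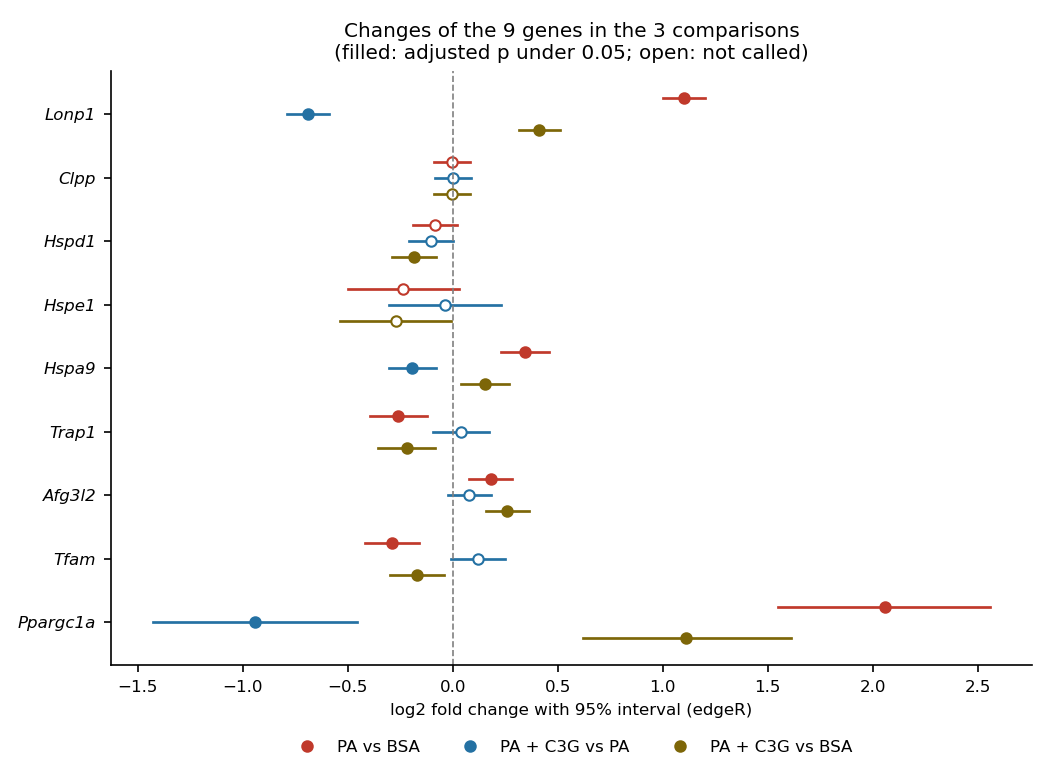
Log2 fold changes of the 9 genes in the 3 comparisons with 95% intervals (edgeR). Filled points passed at an adjusted p under 0.05. Ppargc1a had the widest intervals, with 2.06 (1.55 to 2.56) for PA vs BSA, and all 3 Clpp points lay at 0.

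Lonp1 encodes the Lon protease of the matrix. It had 71.6, 68.8 and 70.1 FPKM in the BSA libraries, 148, 140 and 157 in PA, and 91.3, 86.2 and 91.2 in PA + C3G. The 3 groups did not overlap. PA raised it 2.15-fold (log2 fold change 1.1 ± 0.045 SE, adjusted p = 8.62e-08), and in PA + C3G it was 1.61-fold lower than in PA (−0.69 ± 0.044, adjusted p = 3.22e-05). It remained 1.33-fold above BSA (0.41 ± 0.044, adjusted p = 6.82e-05). By p-value it ranked 8 of the 6499 genes with a lower value in PA + C3G than in PA, and 49 of the 6506 with a higher value in PA than in BSA. Under every alternative tried, the fold changes kept their direction and passed, with log2 values of 1.07 to 1.14 for PA vs BSA and −0.78 to −0.65 for PA + C3G vs PA. The authors' table places the gene (ENSRNOG00000046502) on chromosome 9, 10428853 to 10441177, on the plus strand, in a build that the sources used here do not give.

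Clpp, the proteolytic subunit of the ClpXP protease, lies on the same chromosome of the table (10048886 to 10054359, minus strand), with 14 genes between it and Lonp1. It had 61.7, 61.5 and 59 FPKM in BSA, 61.3, 58.5 and 58.8 in PA, and 57.8, 58.4 and 57.9 in PA + C3G. The level varied little. Its log2 fold changes were −0.0046 (95% interval −0.092 to 0.083), 0.00073 (−0.087 to 0.088) and −0.0038 (−0.091 to 0.084) for PA vs BSA, PA + C3G vs PA and PA + C3G vs BSA. The FPKM of PA + C3G did not overlap either other group, whereas the TMM-normalized counts behind the test did not differ, so the sign of so small a difference depends on the scaling. Clpx, which unfolds substrates for Clpp, had 12.1 ± 0.613, 10.4 ± 0.412 and 11.5 ± 0.896 FPKM in BSA, PA and PA + C3G, and did not pass in any comparison (adjusted p = 0.0631, 0.131 and 0.932).

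Afg3l2 (chromosome 18, 63141418 to 63185510, minus strand in the table) had 42.1, 41.4 and 41.6 FPKM in BSA, 48.5, 45.9 and 44.8 in PA, and 50.4, 46.2 and 46.9 in PA + C3G. Every library with PA was above every BSA library. It rose 1.13-fold in PA (0.18 ± 0.046, adjusted p = 0.00839) and was 1.2-fold above BSA in PA + C3G (0.26 ± 0.046, adjusted p = 0.00171). The 2 PA groups overlapped, and the difference between them did not pass (0.079 ± 0.046, adjusted p = 0.258).

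Among the chaperones, Hspa9 moved in the same order as Lonp1 but by less. It had 180, 166 and 172 FPKM in BSA, 219, 208 and 220 in PA, and 194, 171 and 187 in PA + C3G. PA libraries were above all others, while BSA and PA + C3G overlapped. The log2 fold changes were 0.35 ± 0.051 for PA vs BSA (adjusted p = 0.000323), −0.19 ± 0.051 for PA + C3G vs PA (adjusted p = 0.0247) and 0.15 ± 0.051 for PA + C3G vs BSA (adjusted p = 0.0391). Leaving out PA replicate 1, PA replicate 3, PA + C3G replicate 2 or PA + C3G replicate 3 ended the second call (adjusted p = 0.0683, 0.0823, 0.0607 and 0.0547). The third call was lost in 11 of 20 alternatives, with adjusted p up to 0.208.

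The values of Hspa9 (chromosome 18, 27731072 to 27749235, minus strand) are uncertain for a further reason. The table lists a near copy, LOC100912578, annotated as stress-70 protein, mitochondrial-like, which was looked at after the values were seen and with which reads may have been shared. This copy had 43.6 ± 5.69 FPKM in BSA, 61.9 ± 3.29 in PA and 59.2 ± 3.24 in PA + C3G, and it passed for PA vs BSA (0.53 ± 0.087, adjusted p = 0.000643) but not for PA + C3G vs PA (−0.026 ± 0.086, adjusted p = 0.865). With the counts of both summed, all 3 calls for Hspa9 held (0.38, −0.16 and 0.21, with adjusted p = 6.77e-05, 0.0269 and 0.00383).

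Hspd1 and Hspe1, the chaperonin pair of the shared upstream region printed above, did not pass for PA vs BSA or for PA + C3G vs PA. In the table they stand head to head on chromosome 9 (61680530 to 61690956, minus strand, and 61692154 to 61694599, plus strand). There 1197 bases lie between them, whereas their RefSeq starts are 290 bases apart. Hspd1 had 143, 143 and 154 FPKM in BSA, 141, 130 and 138 in PA, and 127, 118 and 125 in PA + C3G. Each step down was without overlap in FPKM, but only the difference between PA + C3G and BSA passed (−0.19 ± 0.047, adjusted p = 0.0118). Those for PA vs BSA (−0.083 ± 0.047, adjusted p = 0.169) and PA + C3G vs PA (−0.1 ± 0.047, adjusted p = 0.156) did not. Under TPM scaling the last was −0.19 with an adjusted p of 0.0171.

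Hspe1 had 143, 169 and 161 FPKM in BSA, 148, 113 and 135 in PA, and 144, 116 and 115 in PA + C3G. Its libraries overlapped in all 3 comparisons. None passed (−0.24 ± 0.12, −0.038 ± 0.12 and −0.27 ± 0.12, with adjusted p = 0.126, 0.858 and 0.1 for PA vs BSA, PA + C3G vs PA and PA + C3G vs BSA). Without PA replicate 2 the first was −0.14. The last passed under TPM scaling, DESeq2 and limma, and without PA + C3G replicate 1 (adjusted p = 0.0251).

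Trap1 (chromosome 10, 11724032 to 11757681, plus strand) had 36.9, 40.6 and 37.6 FPKM in BSA, 30.6, 29.9 and 34 in PA, and 30.5, 30.9 and 33.3 in PA + C3G. Both PA groups lay below BSA and overlapped each other. It fell in PA (−0.26 ± 0.06, adjusted p = 0.00516) and was also lower than BSA in PA + C3G (−0.22 ± 0.06, adjusted p = 0.017), a call lost without PA + C3G replicate 1 (adjusted p = 0.0506). The 2 PA groups differed by 0.039 ± 0.06 (adjusted p = 0.703).

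Tfam (chromosome 20, 18594037 to 18606151, plus strand) had 70.2, 69.2 and 76.5 FPKM in BSA, 55.6, 58.6 and 59.5 in PA, and 60.8, 65.1 and 58.1 in PA + C3G. All 6 libraries with PA were below the BSA libraries. It fell 1.22-fold in PA (−0.29 ± 0.057, adjusted p = 0.00204). In PA + C3G it was 1.12-fold below BSA (−0.17 ± 0.057, adjusted p = 0.0415), but 8 of 20 alternatives lost this call, with adjusted p up to 0.121. The difference between PA + C3G and PA did not pass (0.12 ± 0.057, adjusted p = 0.173) and was 0.031 under TPM scaling.

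Ppargc1a (chromosome 14, 63095720 to 63187009, plus strand) went the other way from Tfam. Its FPKM was 1.42, 0.791 and 1.01 in BSA, 5.21, 3.46 and 4.53 in PA, and 2.37, 2.08 and 2.22 in PA + C3G. The 3 groups did not overlap. PA raised it 4.16-fold (2.06 ± 0.23, adjusted p = 4.54e-05), and it was 1.92-fold lower in PA + C3G than in PA (−0.94 ± 0.22, adjusted p = 0.014) and 2.16-fold above BSA (1.11 ± 0.22, adjusted p = 0.00331). The level was low, with 123 to 974 estimated counts per library, and the standard errors were the largest of the 9 genes. Without PA replicate 1, the difference between PA + C3G and PA was −0.81 and missed the threshold (adjusted p = 0.0502).

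The balance between selected transcripts was read as ratios of FPKM in each library. Lonp1 to Clpp was 1.16 ± 0.0356 in BSA, 2.49 ± 0.15 in PA and 1.54 ± 0.0584 in PA + C3G, and no groups overlapped. Clpp lay between 57.8 and 61.7 FPKM throughout, so this ratio followed Lonp1. Hspd1 to Hspe1 was 0.934 ± 0.078, 1.04 ± 0.0993 and 0.997 ± 0.105, and Clpp to Clpx was 5.05 ± 0.332, 5.71 ± 0.337 and 5.08 ± 0.39, with overlap in every comparison. Hspa9 to Hspa5, its counterpart in the endoplasmic reticulum (ER), was 0.517 ± 0.045 in BSA, 0.196 ± 0.00478 in PA and 0.238 ± 0.013 in PA + C3G without overlap. In PA compared to BSA, Hspa5 rose 3.33-fold and Hspa9 1.27-fold. With 3 libraries per group an exact two-sided permutation test cannot go below p = 0.1, and the ratios without overlap were at that limit, with an adjusted p of 0.2 over the 12 tests.

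**Figure D3:**
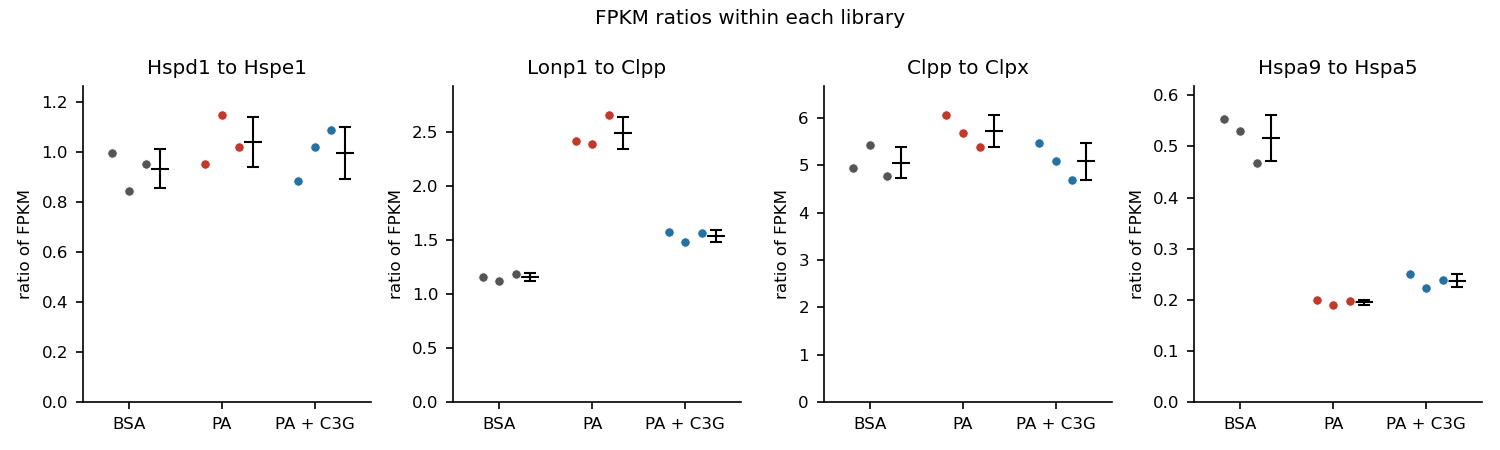
Ratios of FPKM within each library (dots) with mean and SD of 3 libraries, each axis starting at 0. Lonp1 to Clpp was highest in PA (2.39 to 2.66), Hspa9 to Hspa5 was highest in BSA (0.467 to 0.553), and the other pairs overlapped between groups.

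Of 15 other mitochondrial proteases tested, 4 rose and 3 fell in PA compared to BSA, where 25.8% of all tested genes rose and 25.2% fell. The lists that follow are read against the same shares. Oma1, which cleaves Opa1 and Dele1 in stressed mitochondria, had 3.41 ± 0.491 FPKM in BSA and 5.35 ± 0.5 in PA (0.67 ± 0.13, adjusted p = 0.0019). Xpnpep3 (0.40) and Htra2 (0.24) also rose. Parl, a rhomboid protease that processes Pink1, fell (−0.46 ± 0.082, adjusted p = 0.00112), as did Spg7 (−0.31), the partner of Afg3l2 in the m-AAA protease, and Pmpcb (−0.19), a subunit of the presequence peptidase. None of the 15 passed for PA + C3G vs PA by edgeR, against 21.2% of all tested genes. Still, 5 had an unadjusted p under 0.05, and 3 passed under TPM scaling, 1 with DESeq2 and 0 with limma. Yme1l1 was listed at 0 in 6 of 9 libraries and at 1.55 to 28.1 FPKM in the others, and no fold change is given for it.

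Of 26 other chaperones and import factors, 6 rose and 6 fell in PA, against 51.0% of all tested genes that passed in either direction. Grpel2, a nucleotide exchange factor for Hspa9, rose most, from 10.7 ± 1.38 FPKM in BSA to 17.4 ± 0.9 in PA (0.73 ± 0.084, adjusted p = 6.53e-05), and Grpel1 (0.20) and the co-chaperone Dnaja3 (0.24) rose as well. Timm22 (−0.32), Tomm20 (−0.32) and Timm17a (−0.31), parts of the import machinery, fell. In PA + C3G, Dnaja3 (−0.17), Hscb (−0.34), a co-chaperone for iron-sulfur cluster transfer, and the prohibitin Phb2 (−0.15) were lower than in PA, and none was higher. The count of 3, against 21.2% of all tested genes, was 6 under TPM scaling, and it dropped to 0 without PA replicate 3 and to 1 without PA replicate 1, PA replicate 2, PA + C3G replicate 2 or PA + C3G replicate 3.

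Of 20 genes for mitochondrial DNA maintenance and transcription, the group to which Tfam is related by function, 4 rose and 3 fell in PA (51.0% of all tested genes passed), and without BSA replicate 1 or PA replicate 2 the count was 4 in all. Polrmt, the mitochondrial RNA polymerase, had 11 ± 0.622 FPKM in BSA and 14.1 ± 0.642 in PA (0.38 ± 0.065, adjusted p = 0.000866), and the helicase Twnk rose by 0.27. Mgme1, an exonuclease for mitochondrial DNA, fell from 11.7 ± 0.269 to 6.9 ± 0.555 FPKM (−0.73 ± 0.09, adjusted p = 0.000102). None of the 20 passed for PA + C3G vs PA by edgeR, DESeq2 or limma, while 5 had an unadjusted p under 0.05 and 4 passed under TPM scaling. By edgeR 21.2% of all tested genes passed for PA + C3G vs PA.

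Of 18 other regulators of biogenesis tested, 3 rose and 5 fell in PA, again beside 51.0% of all tested genes. Ppargc1b, the paralogue of Ppargc1a, had 1.4 ± 0.134 FPKM in BSA, 2.7 ± 0.421 in PA and 1.77 ± 0.127 in PA + C3G, and passed for PA vs BSA (0.97 ± 0.14, adjusted p = 0.000355) and for PA + C3G vs PA (−0.57 ± 0.14, adjusted p = 0.0205). Esrra, an orphan nuclear receptor coactivated by Ppargc1a, had 26 ± 1.44, 44.8 ± 5.26 and 34.9 ± 3.57 FPKM and passed in the same directions (0.81 and −0.32). In contrast Prkaa2, the AMPK alpha 2 subunit, had 34.7 ± 1.96 FPKM in BSA, 16.5 ± 0.548 in PA and 15 ± 0.805 in PA + C3G, and fell by 1.05 on the log2 scale in PA. Gabpb1 (−0.76) and Esrrg (−0.55) also fell, and Esrrg was higher in PA + C3G than in PA (0.34 ± 0.063, adjusted p = 0.00522). Nrf1, an activator of Tfam, had log2 fold changes of 0.016 and −0.13 and did not pass. In PA + C3G vs PA, 2 of the 18 were higher and 3 lower, against 11.1% and 10.2% of all tested genes. Under TPM scaling, where more genes in all were lower, the counts were 1 and 7. The total of 5 with TMM dropped to 1 without PA replicate 3 and to 3 without BSA replicate 3. It was 2 without PA replicate 1, PA + C3G replicate 2 or PA + C3G replicate 3.

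Of 12 genes listed for stress signalling, some of which also serve other compartments, 8 rose and 1 fell in PA, against 25.8% and 25.2% of all tested genes. Ddit3 (CHOP) had 54.2 ± 4.7 FPKM in BSA, 134 ± 10.4 in PA and 79.9 ± 4.26 in PA + C3G (1.33 for PA vs BSA and −0.71 for PA + C3G vs PA). Eif2ak3 (PERK), which senses stress in the ER and not in mitochondria, moved alike (1.33 and −0.65). Atf5, linked to the mitochondrial unfolded protein response, had 280 ± 18.7, 467 ± 15.1 and 506 ± 7.71 FPKM and did not come down in PA + C3G (0.15 ± 0.048 vs PA, adjusted p = 0.049). It was 1 of 2 genes of the list that passed as higher in PA + C3G than in PA, while 2 passed as lower. Of all tested genes, 11.1% were higher and 10.2% lower there. The count of higher genes in the list was 1 with median-ratio size factors, TPM scaling or limma. Atf4 had 225 ± 18.7, 307 ± 30.6 and 307 ± 17.9 FPKM, and its difference between the 2 PA groups did not pass (0.035, adjusted p = 0.804). Hdac1 was lower in PA (−0.72) and higher in PA + C3G than in PA (0.37).

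Counterparts in other compartments were set beside the mitochondrial chaperones. In the ER all 5 rose in PA, with Hspa5 at 336 ± 29.7 FPKM in BSA, 1100 ± 14.8 in PA and 774 ± 9.6 in PA + C3G (1.73 for PA vs BSA and −0.47 for PA + C3G vs PA). Their median log2 fold change was 1.47 for PA vs BSA and −0.47 for PA + C3G vs PA, where 4 of 5 passed as lower. In the cytosol 1 of 9 rose and 3 fell in PA, with Hspa8 up (0.20) and Hsp90aa1 down (−0.75). Relative to PA, PA + C3G showed 1 higher and 4 lower. In that comparison 11.1% of all tested genes were higher and 10.2% lower, for the ER and the cytosolic counts alike. The cytosolic count for PA vs BSA dropped from 4 to 2 without BSA replicate 1 or BSA replicate 2, and that for PA + C3G vs PA from 5 to 3 without PA replicate 3 or PA + C3G replicate 1.

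The 13 mRNAs encoded in mitochondrial DNA, which Tfam helps to transcribe, were lower in PA in 6 cases and higher in none, against 25.2% and 25.8% of all tested genes. The falls included Mt-nd4l (−0.42 ± 0.075, adjusted p = 0.00115), Mt-nd6 (−0.29 ± 0.055, adjusted p = 0.00162) and Mt-nd3 (−0.27 ± 0.089, adjusted p = 0.0303), all subunits of complex I, and the list median was −0.16. In PA + C3G 4 were higher than in PA and none was lower, against 11.1% and 10.2% of all tested genes. Those higher included Mt-nd6 (0.25), Mt-nd1 (0.23) and Mt-cyb (0.17), and the list median was 0.17. All 13 estimates were positive with TMM, but only 9 under TPM scaling and 11 with limma, where 1 passed each. Without PA replicate 3 none of the 13 passed, and without PA + C3G replicate 3 only 1 did. Polyadenylated RNA was selected, so these levels may not stand for all copies of the mitochondrial transcripts. Whether the reads of each mRNA, Mt-nd6 included, came from polyadenylated copies was not measured.

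**Figure D4:**
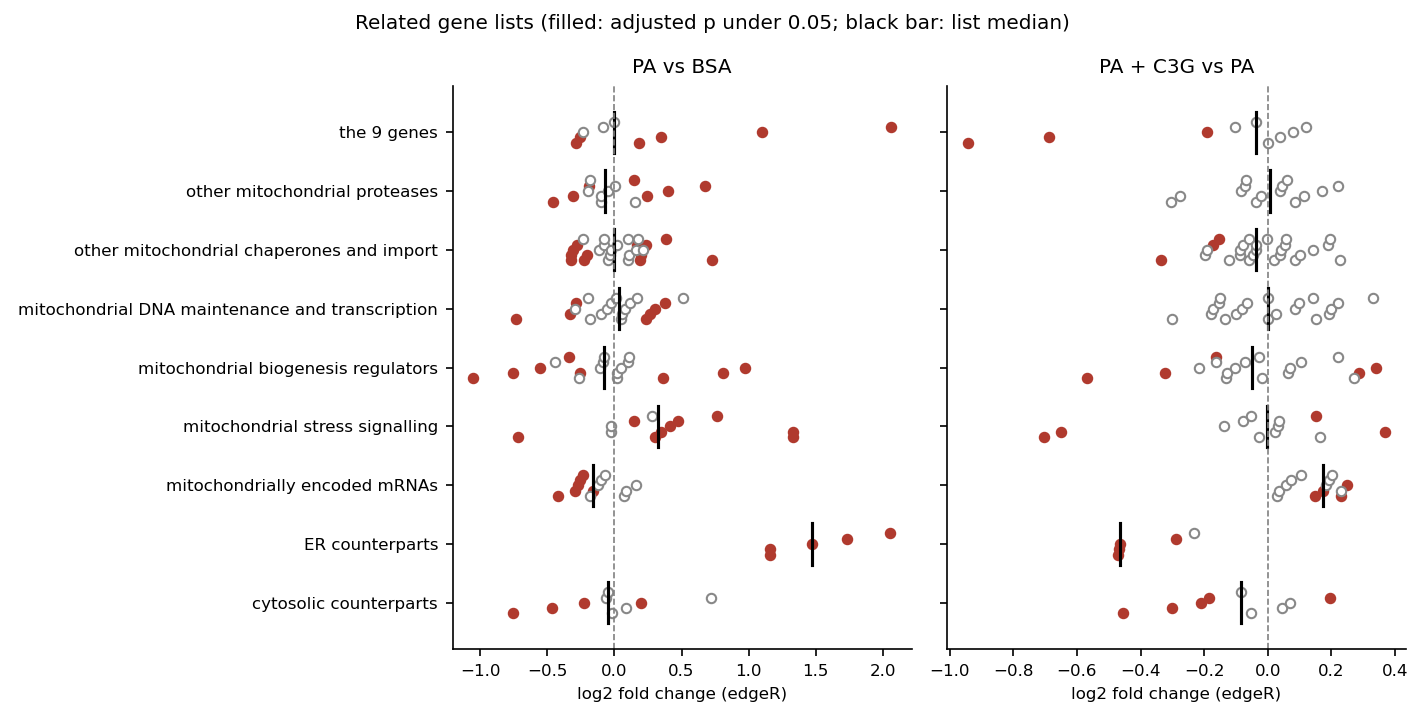
Log2 fold changes of the 9 genes and of 8 related gene lists for PA vs BSA (left) and PA + C3G vs PA (right), on axes of different width. Filled points passed at an adjusted p under 0.05, black bars mark the median of the points drawn, and Yme1l1 is not drawn. Of the list medians, that of the ER counterparts lay furthest from 0 in both panels (1.47 and −0.47), while single genes such as Ppargc1a (2.06 and −0.94) lay further out.

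The genes whose pattern over the 9 libraries was most like that of 3 members were found by Pearson's r of log2 CPM, which includes the differences between the 3 groups and is given as a description. For Lonp1 these were Dhdds (r = 0.9961), Zmym6 (0.9925), Pabpc1 (0.9924), Entpd2 (0.9922) and a gene with a clone-based name (0.9932). Ppargc1a was most like Arfgef1 (0.9956), Ghitm (0.9919), Acsl4 (0.9908), Snx8 (0.9882) and Marchf6 (0.9877). For Hspd1 the values were lower, with Atp5f1a (0.9584), Tbp (0.9561) and Tab1 (0.95) followed by 2 genes without a standard symbol (0.948 and 0.9364). Within the 9 genes, Lonp1 was most like Hspa9 (0.954) and Ppargc1a (0.953) and ran opposite to Tfam (−0.872).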

How the data were processed

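RNA-seq of 3 BSA, 3 PA and 3 PA + C3G libraries of INS-1E cells was re-analysed. Groups came from the sample labels and doses from the study's methods. The authors deposited estimated counts per gene, not normalized, and the authors also deposited FPKM. The submitters' processing notes name cutadapt 1.9, HISAT2 2.0.4 and StringTie 1.3.4d, and the genome build is not given in the sources used here. Low counts pile up at 4 (4044 values, against 2040 at 3 and 1276 at 5), so counting precision may be lower than the totals of 45559993 to 66730721 give.

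Counts were rounded and the 12958 genes that averaged 1 FPKM or more were tested with edgeR 4.0.16 (R 4.3.3, TMM, quasi-likelihood test, all 9 libraries, Benjamini-Hochberg adjustment), after a check on simulated data. Errors of log2 fold changes are SE, others SD. The methods speak of biological triplicates in general and of 3 samples per group for RNA-seq, without saying that these came from separate cultures, so p-values measure the spread between these libraries, which may be technical. Ratios were compared by exact permutation tests. Alternatives were median-ratio size factors, TPM scaling, DESeq2 1.42.0, limma 3.58.1 with pseudocounts of 1 and 0.1, a minimum mean of 5 FPKM or none, a fit to the compared groups alone, a replicate block and leaving out each library. Counts divided by 4 and Hspa9 summed with its near copy were added after seeing the data. The 9 genes and the lists were chosen with earlier results of these data known. Named genes of a list were at most 3 rises and 3 falls per comparison, by size, among those that passed with libraries that did not overlap in FPKM; Clpx, Yme1l1, Nrf1, Atf4, Ins1, Hspa8 and Hspa9's near copy were named outside this rule, after their values were seen.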

Additional observations from a re-analysis of the deposited data

How the results depend on the processing

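Lonp1 kept its direction and passed in all 3 comparisons under all 20 alternatives. Clpp values near 0 changed sign. For PA vs BSA Clpp was 0.0252 under TPM scaling and ran from −0.0333 to 0.00832 over the left-out libraries. For PA + C3G vs PA it was −0.00169 with median-ratio size factors, −0.0884 under TPM scaling, −0.00184 with DESeq2, −0.0351 and −0.0356 with limma (pseudocounts 1 and 0.1), −0.000488 without a filter, −0.00401 at a mean FPKM of at least 5, −0.00047 with only the compared groups and −0.00156 with counts divided by 4, and ran from −0.0122 to 0.0199 over the left-out libraries. In that comparison TPM scaling also turned Trap1 to −0.0505 and Afg3l2 to −0.0103 and brought Hspd1 past the threshold (−0.192). Over the left-out libraries Hspe1 ran from −0.157 to 0.0493, Trap1 from −0.00151 to 0.0929, Hspa9 from −0.234 to −0.146 and Ppargc1a from −1.09 to −0.807. Tfam, which did not pass, was 0.0306 under TPM scaling and ran from 0.0724 to 0.157. For PA vs BSA, Hspe1 ran from −0.329 to −0.139 and Hspd1 from −0.111 to −0.0538, neither passing. For PA + C3G vs PA, the number of the 9 genes that passed ran from 1 (without PA replicate 1) to 3 over the left-out libraries. That of all genes ran from 1718 (without PA replicate 3) to 2838.

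For PA + C3G vs BSA, Hspe1 passed under TPM scaling (−0.332), DESeq2 (−0.277) and limma (−0.337 and −0.34), with left-out libraries giving −0.397 to −0.221. Hspa9 no longer passed under TPM scaling (0.0928), limma (0.09 and 0.0904), no filter (0.154) or only the compared groups (0.154), and ran from 0.106 to 0.194 over the left-out libraries. Tfam no longer passed without a filter (−0.168), with only the compared groups (−0.169) or with the replicate block (−0.169), and ran from −0.222 to −0.132. Trap1 ran from −0.266 to −0.187. Ppargc1a passed throughout, at 0.649 with limma (pseudocount 1) and from 0.928 to 1.35 over the left-out libraries. The cause was not tested in any of these cases.

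Deviations of same-numbered libraries correlated weakly over all tested genes, from −0.0918 to 0.0796. In PA + C3G vs PA, however, each library correlated best with its own number. This did not hold for replicates 1, 2 and 3 in PA + C3G vs BSA, nor for replicate 3 in PA vs BSA. Single genes could also follow the number, as Gcg was highest in replicate 1 and lowest in replicate 2 of every group. Whether libraries were paired is therefore not settled. The replicate block gave 6843 genes for PA vs BSA, 3118 for PA + C3G vs PA and 5058 for PA + C3G vs BSA. Without it these were 6614, 2752 and 4783. The block changed no other call of the 9 genes. Ppargc1a was not tested at a mean FPKM of at least 5. Of the 660 counts of related lists under alternatives, 61 moved by more than 1.5 times. Differences of Ppargc1a are limited by its low counts, and 3 libraries per group limit all results.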
